A study of Mus musculus with 9 samples.

Results

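The core autophagy genes on a mouse neuroinflammation panel were examined: Ulk1, Ambra1, Becn1, Atg14, Atg9a, Atg7, Atg3, Atg5, Sqstm1 and Optn. They were chosen by name for their place in the pathway, by a rule that uses no measured value but was set with earlier results of these data known. All 10 of 10 were among the 757 genes of the table.

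Gene expression was counted on NanoString nCounter lanes in RNA of sorted brain myeloid cells after an experimental transient ischemic attack (TIA), in which a filament briefly occludes the middle cerebral artery. There were 3 animals in each of 3 groups, named Sham, TIA 24h and TIA 3d. In Sham mice the artery was not occluded, although they too went through surgery, and TIA mice were taken 24 h or 3 d after the occlusion. Live cells positive for CD45 and CD11b were sorted from dissociated brains that had been placed in a solution with actinomycin D, a blocker of transcription, and were labelled microglia. The labels give no strain or age. The methods name wild-type C57BL6/J mice, and animals of 10 to 12 weeks apart from a separate aged cohort. Every group carried the anesthesia and the surgical wound, and each lane held RNA of many sorted cells, so that fewer cells of a type and less RNA per cell cannot be told apart. Microglia are the resident macrophages of the brain, and the comparison asks whether their transcripts differ after a TIA and between the early and the later time.

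Autophagy is the route by which a cell encloses cytoplasm, worn organelles or aggregates in a double membrane, the autophagosome, and delivers them to the lysosome. A kinase complex around ULK1 starts the process, a lipid kinase complex built on Beclin 1 marks the site, ATG9A vesicles supply membrane, and ubiquitin-like conjugation enzymes attach LC3 family proteins to the growing membrane. Receptors such as p62 bind ubiquitin-tagged cargo to LC3. In microglia the same machinery is known to take part in the handling of engulfed material and in the control of inflammatory responses. Transcript levels do not measure the flow of material through the pathway, which is set largely by protein modification.

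Promoters of the set were read because TFEB, a known regulator of autophagy and lysosome genes, binds motifs that contain the E-box CACGTG. RefSeq promoter windows of 300 bases, from 250 before to 50 after each start (GRCm38.p6), were matched for 9 of the 10 genes. Becn1 had no entry. CACGTG, a palindrome read once for both strands, was present in 4 of 9 windows (44.4%), against 7.15% of all 32851 windows and 9.54% of the 786 windows of genes in the table. The 4 genes were Atg7, Atg5, Atg14 and Atg3, of which Atg3 held 2 copies. The sites are shown with 12 bases on each side, in the direction of the gene and with the E-box in capitals.
Atg7, chr6:114670952-114670981, plus strand, motif from 132 bases before the start: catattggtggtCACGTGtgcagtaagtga
Atg5, chr10:44268313-44268342, plus strand, motif from 14 bases before the start: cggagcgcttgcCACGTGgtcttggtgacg
Atg14, chr14:47568418-47568447, minus strand, motif across the start: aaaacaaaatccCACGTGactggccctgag
Atg3, chr16:45158723-45158752, plus strand, motif from 94 bases before the start: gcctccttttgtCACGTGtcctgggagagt
Atg3, chr16:45158746-45158775, plus strand, motif from 71 bases before the start: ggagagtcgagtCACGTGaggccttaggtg

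The 3 genes of LC3 conjugation in the set (Atg7, Atg3 and Atg5) therefore all held the motif, while the initiation genes Ulk1 and Ambra1, the membrane carrier Atg9a and the receptors Sqstm1 and Optn did not hold these letters in the window. The motif TGACNNNGC, the core recognised by NRF2 (searched on both strands, and able to share letters with an E-box), was found in 0 of 9 windows, against 12.4% of all windows and 14.1% of those of genes in the table. The median GC content was 59.3% in the 9 windows and 52.7% over all of them. A match is a string of letters and not a measured binding site.

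The lanes differed widely in their summed counts. Recovered counts summed to 6560 to 25582 in Sham, 7248 to 10929 in TIA 24h and 29200 to 62883 in TIA 3d. The span was 9.59-fold, and all 3 lanes of TIA 3d were the deepest. The lane factors spanned only 3.58-fold and the median count of a lane ran from 8 to 22, so the sum is not a measure of depth alone. The highest count of any gene was 1118, 493 and 32 in the Sham lanes, 335, 60 and 180 at 24h and 2382, 984 and 2963 at 3d. Sham replicate 3, where no gene exceeded 32 counts, enters every comparison with Sham. The sorted cells carried microglial transcripts in every lane, but in unequal amounts: the 11 of 14 listed microglial markers on the panel took 2.68% to 19.5% of the counts in Sham, 1.84% to 4.32% in TIA 24h and 10.6% to 16.3% in TIA 3d. The 9 of 11 listed oligodendrocyte markers took 0.465% to 5.60%, 2.01% to 5.24% and 0.262% to 0.551%, and no lane lacked either list. Markers of neurons (8 of 10 measured) took 0.289% to 0.717% in Sham, 0.613% to 0.911% at 24h and 0.148% to 0.253% at 3d, and those of blood leukocytes (10 of 14) 0.317% to 0.930%, 0.759% to 0.938% and 0.140% to 0.373%. Astrocyte markers (4 of 8) took 0.289% to 0.960%, 0.555% to 1.09% and 0.154% to 0.307%, and endothelial markers (4 of 8) 0.141% to 0.488%, 0.430% to 0.497% and 0.0811% to 0.147%. For these 4 lists the 3d lanes lay below the 24h lanes, and they overlapped Sham for all but the neurons. The part of depth and cell mixture in the differences given here was not tested.

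No member of the core set passed the test between any of the groups. With limma on all 757 genes and Benjamini-Hochberg adjustment, 0 of 10 had an adjusted p under 0.05 in the F test over the 3 groups, in TIA 24h against Sham, in TIA 3d against Sham or in TIA 3d against TIA 24h. The background for these counts was 0% of all genes in the F test, 0% and 0% in the 2 comparisons with Sham, and 19.2% in TIA 3d against TIA 24h. At an unadjusted p under 0.05, 1 member (Atg9a) was counted in the F test, against 31% of all genes. Atg9a was again the only member at that level in TIA 24h against Sham (1 of 10, background 7.53%) and in TIA 3d against Sham (1 of 10, background 19.6%), and none was in TIA 3d against TIA 24h (0 of 10, background 40.2%). Linear models with voom weights on the recovered counts also called 0 members in each of the 4 tests. These p-values rest on the spread between animals within groups of 3, pooled over the 3 groups and drawn toward that of the other genes on the panel. The median half-width of the 95% confidence interval of a difference was 0.90 on the log2 scale over the members; these intervals are not adjusted for the number of genes, and differences of that size or somewhat larger did not pass the adjusted test.

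**Figure D1:**
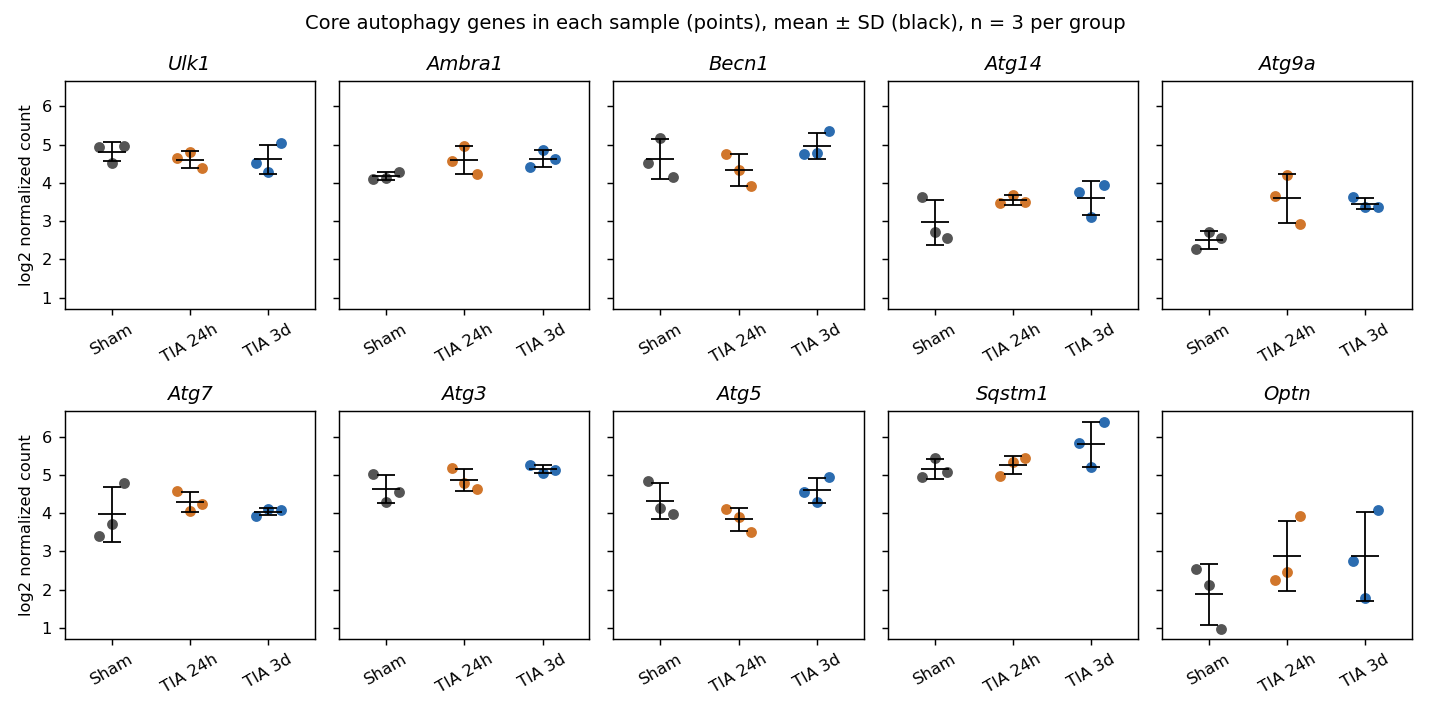
Deposited log2 normalized counts (y axis) of the 10 core autophagy genes in the 9 samples, by group (x axis). Points are animals and black bars are the mean ± SD with n = 3; Atg9a in Sham lies below all TIA samples, and Optn spreads from 0.97 to 4.09.

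The initiation genes gave the steadiest values of the set. Ulk1 encodes the kinase that starts autophagosome formation. Its deposited log2 value was 4.94, 4.52 and 4.97 in the Sham animals, 4.66, 4.79 and 4.38 at 24h and 4.53, 4.29 and 5.04 at 3d. The groups overlapped throughout, and all 9 lanes lay within 0.74 of each other, a range smaller than that of all but 0.93% of the genes. The difference was -0.20 ± 0.39 (SE) at 24h against Sham (adjusted p = 0.92) and -0.19 ± 0.39 at 3d against Sham (adjusted p = 0.80). With a sample left out they ran from -0.35 to -0.09 and from -0.40 to -0.03, all below 0. The scaling moved the difference at 3d further, to -0.03 median-centred, -0.63 by quantile and -0.95 by lane total (adjusted p = 0.16). At 24h against Sham it was -0.38 median-centred, -0.45 by quantile, -0.01 by lane total and -0.004 with array weights.

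Ambra1 encodes a scaffold that links ULK1 to Beclin 1. Its log2 value was 4.11, 4.13 and 4.30 in Sham, 4.56, 4.97 and 4.24 at 24h and 4.42, 4.86 and 4.62 at 3d. All 3 animals at 3d were above all Sham animals, while the 24h group overlapped Sham through its replicate 3. The difference at 3d against Sham was 0.46 (95% CI -0.37 to 1.28, adjusted p = 0.48), and with counts scaled to the lane total it turned to -0.30. Between 3d and 24h it was 0.04 (95% CI -0.79 to 0.87).

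Becn1 and Atg14 encode parts of the lipid kinase complex that marks the site of assembly, Beclin 1 as its core and ATG14 as the subunit that directs it to autophagy. Becn1 read 4.52, 5.17 and 4.14 in Sham, 4.74, 4.35 and 3.92 at 24h and 4.75, 4.77 and 5.34 at 3d on the log2 scale. Its lowest 3d value (4.75) lay just above its highest 24h value (4.74), and the 3d group overlapped Sham. The difference of 3d from 24h was 0.62 ± 0.43 (adjusted p = 0.29), and it was 0.41 without TIA 24h replicate 3 and -0.33 with lane-total scaling. Atg14 read 3.64, 2.71 and 2.56 in Sham, 3.46, 3.69 and 3.51 at 24h and 3.75, 3.09 and 3.94 at 3d. Sham replicate 1 was as high as the TIA animals and the other two Sham animals were lower than all of them, so the groups overlapped. The differences from Sham were 0.58 ± 0.43 at 24h (adjusted p = 0.74) and 0.63 ± 0.43 at 3d (adjusted p = 0.39), the latter -0.13 with lane-total scaling. Leaving out that high Sham animal gave 0.92 and 0.96, and leaving out Sham replicate 3 gave 0.38 at 24h.

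Atg9a gave the largest difference from Sham at 24h of the 10 genes in the deposited values. It encodes the membrane-spanning protein whose vesicles seed the autophagosome. Its log2 value was 2.26, 2.71 and 2.56 in Sham, 3.66, 4.21 and 2.92 at 24h and 3.63, 3.36 and 3.38 at 3d. No TIA animal reached down to the Sham values, at either time. The group means were 2.51 ± 0.23 (SD, n = 3) in Sham, 3.59 ± 0.65 at 24h and 3.45 ± 0.15 at 3d. The difference from Sham was 1.08 ± 0.42 (SE) at 24h, or 2.12-fold with a 95% CI of 1.13 to 3.98 (adjusted p = 0.65), and 0.94 ± 0.42 at 3d, or 1.92-fold with a 95% CI of 1.03 to 3.61 (adjusted p = 0.24). The 2 comparisons share the Sham animals. The values rest on few counts, 5, 6 and 3 in Sham, 8, 10 and 4 at 24h and 22, 12 and 19 at 3d. The exact 95% Poisson intervals of the Sham counts reached down to 0.619 and up to 13.1, and such intervals cover counting error only. Scaled to the lane total, the difference was 1.27 at 24h (adjusted p = 0.65) but 0.19 at 3d (adjusted p = 0.80), so that its size at 3d depended on the scaling. Across all the alternative settings the adjusted p ranged from 0.22 to 0.97 at 24h and from 0.077 to 0.97 at 3d. The rank at 24h also varied. With the log2 total count as a covariate Optn had the larger difference (1.57, against 1.07 for Atg9a), as it did with some single samples left out.

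**Figure D2:**
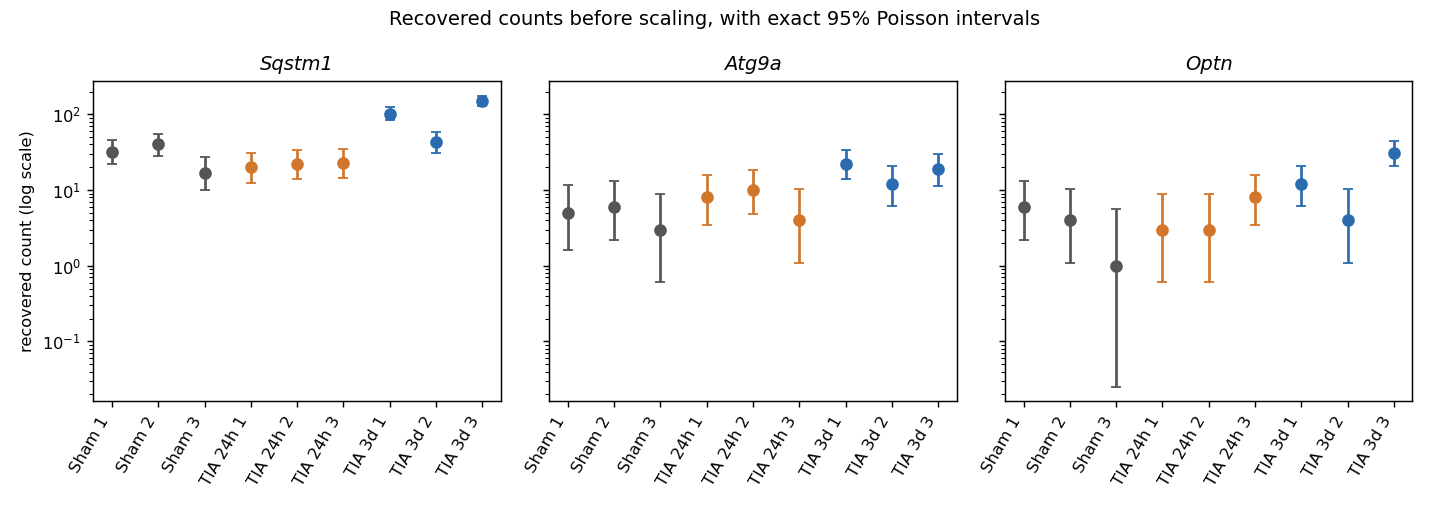
Whole counts recovered from the deposited values (y axis, log scale) of Sqstm1, Atg9a and Optn in each sample (x axis), with exact 95% Poisson intervals as bars. Atg9a stands on 3 to 22 counts and Optn on 1 to 31, while Sqstm1 reaches 151 in the deep TIA 3d lanes.

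The conjugation enzymes had differences of both signs at 24h, none of them past the test. ATG7 is the activating enzyme, ATG3 the enzyme that hands LC3 to its lipid, and ATG5 part of the ligase-like complex that helps it. Atg7 read 3.40, 3.71 and 4.78 in Sham, 4.56, 4.06 and 4.24 at 24h and 3.92, 4.09 and 4.09 at 3d. The Sham animals spanned the values of both TIA groups, and the differences from Sham were 0.32 ± 0.43 at 24h and 0.07 ± 0.43 at 3d. The Sham counts were close together, at 11, 12 and 14, while the factors of these lanes were 1.04, 0.92 and 0.51. The spread of the Sham values thus goes largely with the lane factors. Leaving out Sham replicate 1, 2 or 3 in turn gave 0.04, 0.20 or 0.73 for the value at 24h, and leaving out TIA 24h replicate 1 gave 0.19. Without Sham replicate 1 the value at 3d was -0.21, and under quantile and lane-total scaling -0.06 and -0.69.

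Atg3 read 5.03, 4.30 and 4.56 in Sham, 5.18, 4.79 and 4.62 at 24h and 5.25, 5.06 and 5.13 at 3d. Its 3d animals lay close together and above all Sham animals, though Sham replicate 1 (5.03) came close to the lowest of them (5.06). The difference at 3d was 0.52 ± 0.39 (adjusted p = 0.44) and -0.24 with lane-total scaling. Atg5 read 4.85, 4.13 and 3.97 in Sham, 4.12, 3.89 and 3.51 at 24h and 4.56, 4.29 and 4.94 at 3d. Its 3d animals were all above its 24h animals, and Sham overlapped both. The difference of 3d from 24h, 0.76 (95% CI -0.12 to 1.65, adjusted p = 0.18 in limma), was the largest of the set in that comparison and was -0.19 with lane-total scaling.

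By counting error, the cargo receptors held both the most and the least precise measurement of the set. Sqstm1 encodes p62, which carries ubiquitin-tagged cargo and is also induced by NRF2. It read 4.94, 5.45 and 5.06 in Sham, 4.98, 5.35 and 5.44 at 24h and 5.84, 5.20 and 6.37 at 3d. Replicates 1 and 3 at 3d were above every other animal, and replicate 2 fell among the Sham and 24h values. The difference at 3d was 0.65 ± 0.42 from Sham (adjusted p = 0.37) and 0.55 ± 0.42 from 24h (adjusted p = 0.34), and both turned negative under quantile (-0.24 and -0.60) and lane-total scaling (-0.10 and -0.40). They were 0.37 and 0.26 without TIA 3d replicate 3, and the latter was 0.85 without TIA 3d replicate 2.

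Optn encodes optineurin, a receptor for damaged mitochondria and bacteria. It read 2.52, 2.13 and 0.97 in Sham, 2.24, 2.47 and 3.92 at 24h and 2.75, 1.77 and 4.09 at 3d. A single animal in each TIA group, replicate 3 of both, stood more than 1 log2 unit above the rest, and Sham replicate 3 rested on 1 count. The differences from Sham were 1.00 ± 0.64 at 24h (adjusted p = 0.72) and 1.00 ± 0.64 at 3d (adjusted p = 0.37), with group SDs of 0.81 in Sham, 0.91 at 24h and 1.16 at 3d. Without Sham replicate 3 they were 0.55 and 0.54, without TIA 24h replicate 3 the value at 24h was 0.48, and the value at 3d was 0.39 without TIA 3d replicate 3 and 1.54 without TIA 3d replicate 2. With lane-total scaling they were 1.19 and 0.24.

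**Figure D3:**
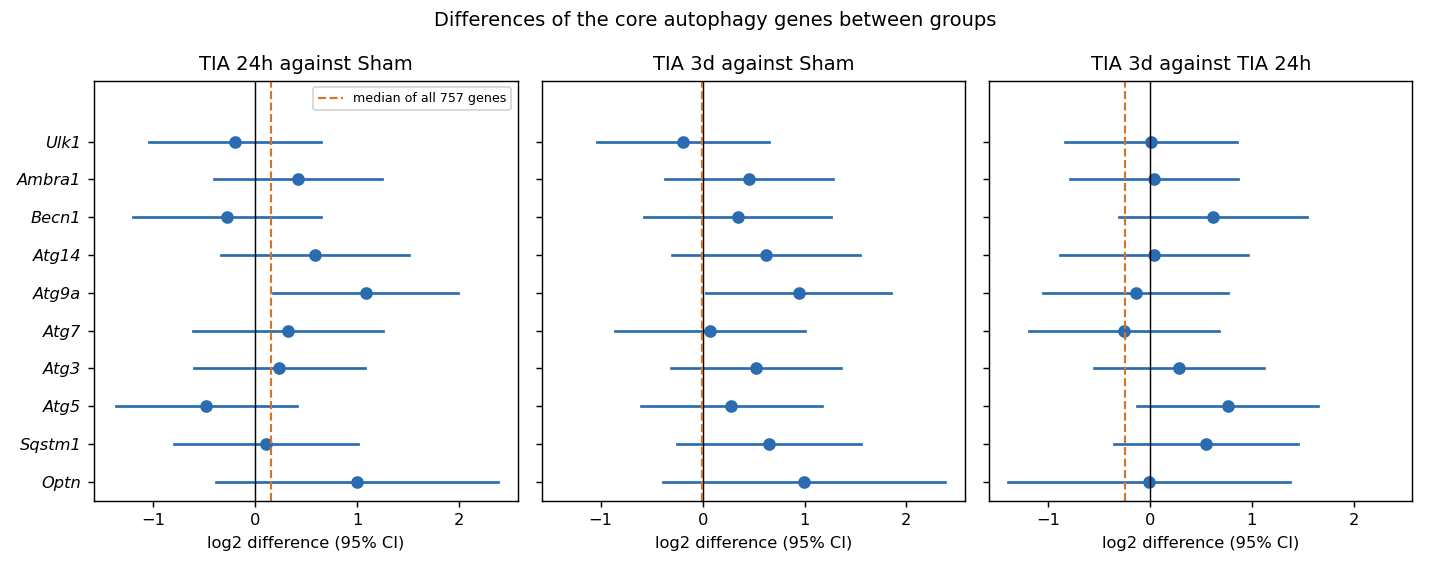
Log2 differences (x axis) of the 10 core autophagy genes with 95% confidence intervals from limma in the 3 comparisons, with the median of all 757 genes as a dashed line. Intervals of Atg9a in the 2 comparisons with Sham lie above 0 (0.18 to 1.99 and 0.04 to 1.85), and all other intervals include 0.

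The differences of the 10 genes ran from -0.48 to 1.08 at 24h against Sham, from -0.19 to 1.00 at 3d against Sham and from -0.25 to 0.76 at 3d against 24h. In TIA 24h against Sham, 7 were above 0, against 60.9% of all genes, and the median difference was 0.28, against 0.15 over all genes. That median was 0.10 median-centred (6 above 0), 0.32 by quantile and 0.47 by lane total, against -0.03, -0.02 and 0.34 over all genes. In TIA 3d against Sham, 9 were above 0 (all but Ulk1), against 49.5% of all genes, with a median of 0.49 against -0.01. In TIA 3d against TIA 24h, 7 were above 0, against 42.1% of all genes, with a median of 0.04 against -0.25. Counts scaled to the lane total turned the last 2 medians to -0.27 and -0.91, with 2 and 0 members above 0, but the same scaling moved the median of all genes to -0.77 and -1.19. Measured from the median gene, 9 of 10 members were above it at 3d against Sham under the deposited, median-centred and lane-total scalings and 7 of 10 under quantile normalization. At 3d against 24h the corresponding counts were 9 and, under quantile normalization, 5, and at 24h against Sham they were 6 and 7. The first 3 of these scalings differ only by a shift of each lane, so they are not separate checks of a position relative to the median gene. With the log2 total count as a covariate the members' median was below that of all genes at 3d, at -0.08 against 0.06 compared with Sham and -0.25 against -0.02 compared with 24h, and 5 and 3 of 10 members were above the median gene.

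**Figure D4:**
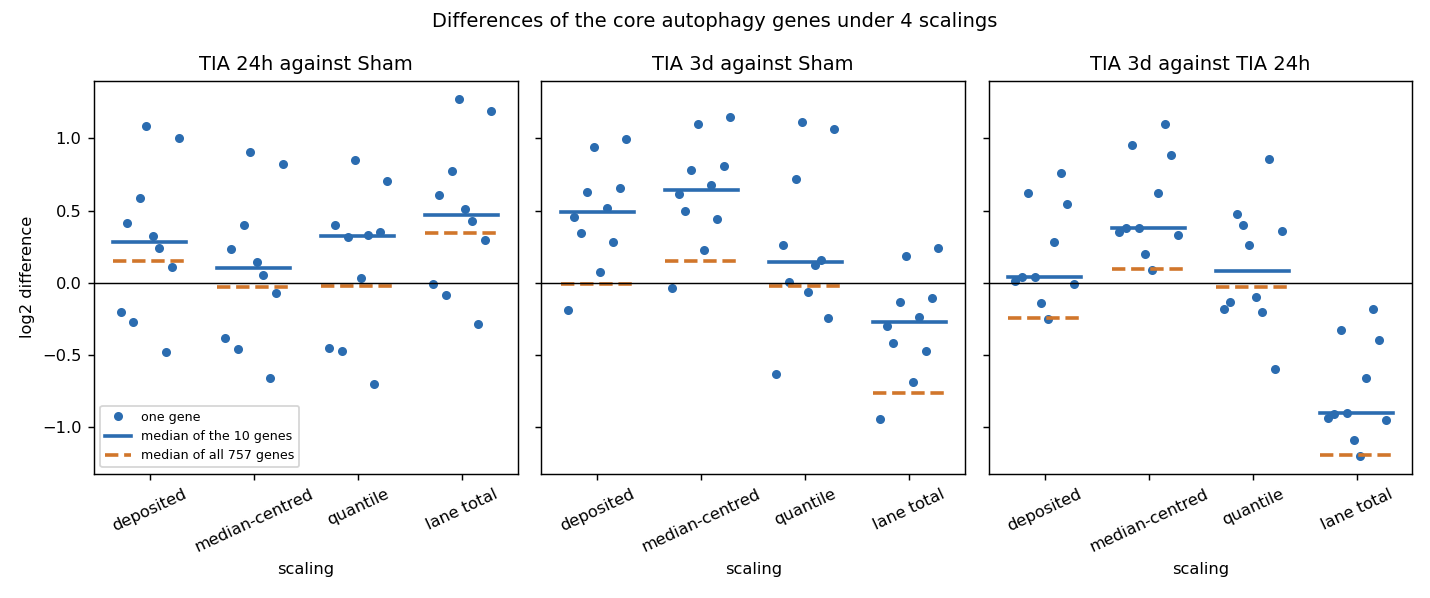
Log2 differences (y axis) of the 10 genes (points) under 4 scalings (x axis) in the 3 comparisons, with the median of the members (solid) and of all 757 genes (dashed). The members' median at 3d against 24h runs from -0.91 (lane total) to 0.38 (median-centred), and the median of all genes moves with it.

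Separation of the groups was counted beside the share on the panel. Groups did not overlap for 1 of 10 members in TIA 24h against Sham (Atg9a, background 9.78%), for 3 of 10 in TIA 3d against Sham (Ambra1, Atg9a and Atg3, background 24.2%) and for 2 of 10 in TIA 3d against TIA 24h (Becn1 and Atg5, background 48.3%). A difference beyond 1 log2 unit was seen in 2, 0 and 0 members, against 11.5%, 22.6% and 41.9% of all genes.

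Over the 9 lanes most members spread less than the median gene. The range from lowest to highest lane was below that of the median gene for 9 of 10, with a median of 1.40 log2 units against 2.08 over all genes. Optn, with 3.11, was the exception. Compared with the spread that counting alone would give, the observed SD was 1.09 times as large for the median member and 1.44 times for the median gene. Ulk1 (0.84), Ambra1 (0.89) and Atg14 (0.91) had ratios below 1, whereas Sqstm1 (1.76), Becn1 (1.32) and Optn (1.27) had the highest.

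Members tended to vary together only in part. Over the 9 lanes, which share depth and scaling, 34 of 45 pairs had a positive Pearson correlation (75.6%, against 51.6% of all pairs of genes), with a median r of 0.18. The highest were Ambra1 with Atg9a (0.84), Atg14 with Optn (0.76) and Atg14 with Atg3 (0.70). The gene most like each member was taken as the highest r over the same 9 lanes. It was Rb1cc1 for Sqstm1 (0.92), whose product FIP200 belongs to the ULK1 complex, and Vps4b for Atg9a (0.88), an ATPase of the ESCRT machinery. Optn was most like Hmox1 (0.95), the heme oxygenase gene, and Atg5 most like Tcirg1 (0.94), a subunit of the proton pump. Becn1 was most like Cox5b (0.88), Ambra1 like Traf3 (0.85), Atg7 like Rrm2 (0.84), Ulk1 like Prf1 (0.76), and both Atg3 (0.88) and Atg14 (0.81) like Nfkbia, the gene of an NF-kB inhibitor. Each is the highest over all other genes of the table and is given as a description. Some of these partners stand on few counts. Counts ran from 1 to 11 for Prf1, 3 to 15 for Rrm2, 4 to 27 for Traf3 and 8 to 40 for Vps4b. They ran from 10 to 62 for Rb1cc1, 3 to 70 for Hmox1, 1 to 94 for Nfkbia, 5 to 106 for Cox5b and 6 to 222 for Tcirg1.

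Other genes of the pathway were counted from 8 lists of 87 genes, of which 30 were on the panel. In TIA 24h against Sham none of the 30 passed the limma test (0 under voom weights), and 2 had an unadjusted p under 0.05, against 7.53% of all genes. The 3 with the smallest p, which did not pass, were Sesn2 (1.44 ± 0.52), Dapk1 (1.30 ± 0.51) and Sesn1 (-1.16 ± 0.59), with adjusted p of 0.65, 0.65 and 0.72. Dapk1 was at 0.70 without Sham replicate 1, and Sesn1 at -1.84 or -0.68 when replicate 1 or replicate 3 of the 24h group was left out. Sestrins are stress-induced restrainers of mTORC1, and DAPK1 is a kinase that acts on Beclin 1. In TIA 3d against Sham none passed either (0 under voom weights), and 6 had an unadjusted p under 0.05, against 19.6% of all genes. The 3 with the smallest p were Pik3r1 (1.64 ± 0.55), Ctss (2.85 ± 0.97) and Lamp1 (1.66 ± 0.57), each with an adjusted p of 0.16. Ctss read 9.62, 7.86 and 4.43 in the Sham animals, and its difference was 1.41 without Sham replicate 3. Lamp1 was at 1.12 without Sham replicate 3.

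Between TIA 24h and TIA 3d, 7 of the 30 passed (6 higher and 1 lower at 3d), against 0 of the 10 core genes and 19.2% of the panel, a share near that of the 30. With voom weights 3 of the 7 passed (Ctss, Pik3r1 and Sesn2), while Pik3cg (adjusted p = 0.065), Sesn1 (0.071), Rab7 (0.071) and Lamp1 (0.103) did not. Of the 6 genes of fusion and lysosome, 3 passed, all of them higher at 3d; Epg5 (-0.43, adjusted p = 0.48) did not pass, although its groups did not overlap, with the 3d animals below the 24h animals. Ctss, the lysosomal protease cathepsin S, read 7.01, 6.17 and 5.17 at 24h and 10.18, 9.71 and 10.56 at 3d (4.04 ± 0.97, adjusted p = 0.0232). Lamp1, a major protein of the lysosomal membrane, read 6.59, 4.97 and 5.51 and then 7.62, 7.38 and 8.66 (2.20 ± 0.57, adjusted p = 0.0304). Rab7, the GTPase of late endosome and lysosome fusion, read 4.66, 4.21 and 3.73 and then 6.07, 5.82 and 6.93 (2.08 ± 0.52, adjusted p = 0.0249). Every 3d animal was above every 24h animal for these 3 genes, a separation that 48.3% of the panel showed in one direction or the other. Their sizes depended on the scaling: under quantile normalization Ctss was at 1.33 (adjusted p = 0.36), Lamp1 at 0.39 (0.68) and Rab7 at 1.55 (0.12), and by lane total they were at 3.09 (0.0143), 1.25 (0.063) and 1.13 (0.059).

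Of the 16 genes of nutrient and stress signalling, Pik3r1 (2.36 ± 0.55, adjusted p = 0.0229) and Pik3cg (2.03 ± 0.53, adjusted p = 0.0304), subunits of class I PI3 kinases, and Sesn1 (1.95 ± 0.59, adjusted p = 0.0421) rose from 24h to 3d, and Sesn2 fell by 1.58 ± 0.52 (adjusted p = 0.0497). Sesn2 read 4.36, 3.89 and 3.51 at 24h and 2.34, 3.23 and 1.45 at 3d. Under quantile normalization the differences of Pik3r1, Pik3cg, Sesn1 and Sesn2 were 2.18, 1.81, 1.93 and -1.11, none past the threshold, and by lane total they were, in the same order, 1.41, 1.08, 1.00 and -2.52, of which Pik3r1 (adjusted p = 0.0493) and Sesn2 (0.0114) passed. The groups did not overlap for these genes (background 48.3%) except Sesn1, whose 24h replicate 1 (4.24) was above 3d replicate 2 (4.02). None of the lone initiation gene (Rb1cc1, 0.58), the lone conjugation gene (Map1lc3a, -0.45), the 4 cargo and mitophagy receptors (median 0.06) and the 2 BCL2 family genes (median 0.20) passed. The lists of the class III PI3 kinase complex and of membrane supply had no measured gene beyond the core set.

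These calls depended on which samples were kept. All 7 genes passed without Sham replicate 1, Sham replicate 3 or TIA 3d replicate 2. Leaving out TIA 24h replicate 2 gave an adjusted p of 0.0617 to 0.124 for the 7 genes, leaving out TIA 24h replicate 3 gave 0.0884 to 0.139, leaving out TIA 3d replicate 1 gave 0.0827 to 0.136 and leaving out TIA 3d replicate 3 gave 0.0788 to 0.199, and each of these left 0 of the 757 genes past the test. The differences themselves kept their signs with any sample left out, from 3.56 to 4.48 for Ctss, from 1.81 to 2.65 for Lamp1 and from 1.75 to 2.31 for Rab7. Sesn1 and Sesn2 also missed the threshold without Sham replicate 2 (0.0502 each), and Sesn2 without TIA 24h replicate 1 (0.125). The rise ran alongside the microglial share of the counts, 1.84% to 4.32% at 24h and 10.6% to 16.3% at 3d, and alongside depth, whose parts in it were not tested separately. With the log2 total count as a covariate none of the 7 passed: the differences were -1.31 for Ctss, -0.22 for Lamp1, -0.19 for Rab7, 1.06 for Pik3r1, 0.14 for Pik3cg, 0.03 for Sesn1 and -0.63 for Sesn2. Since all 3d lanes had the highest totals, total count and time can hardly be told apart in that fit.

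**Figure D5:**
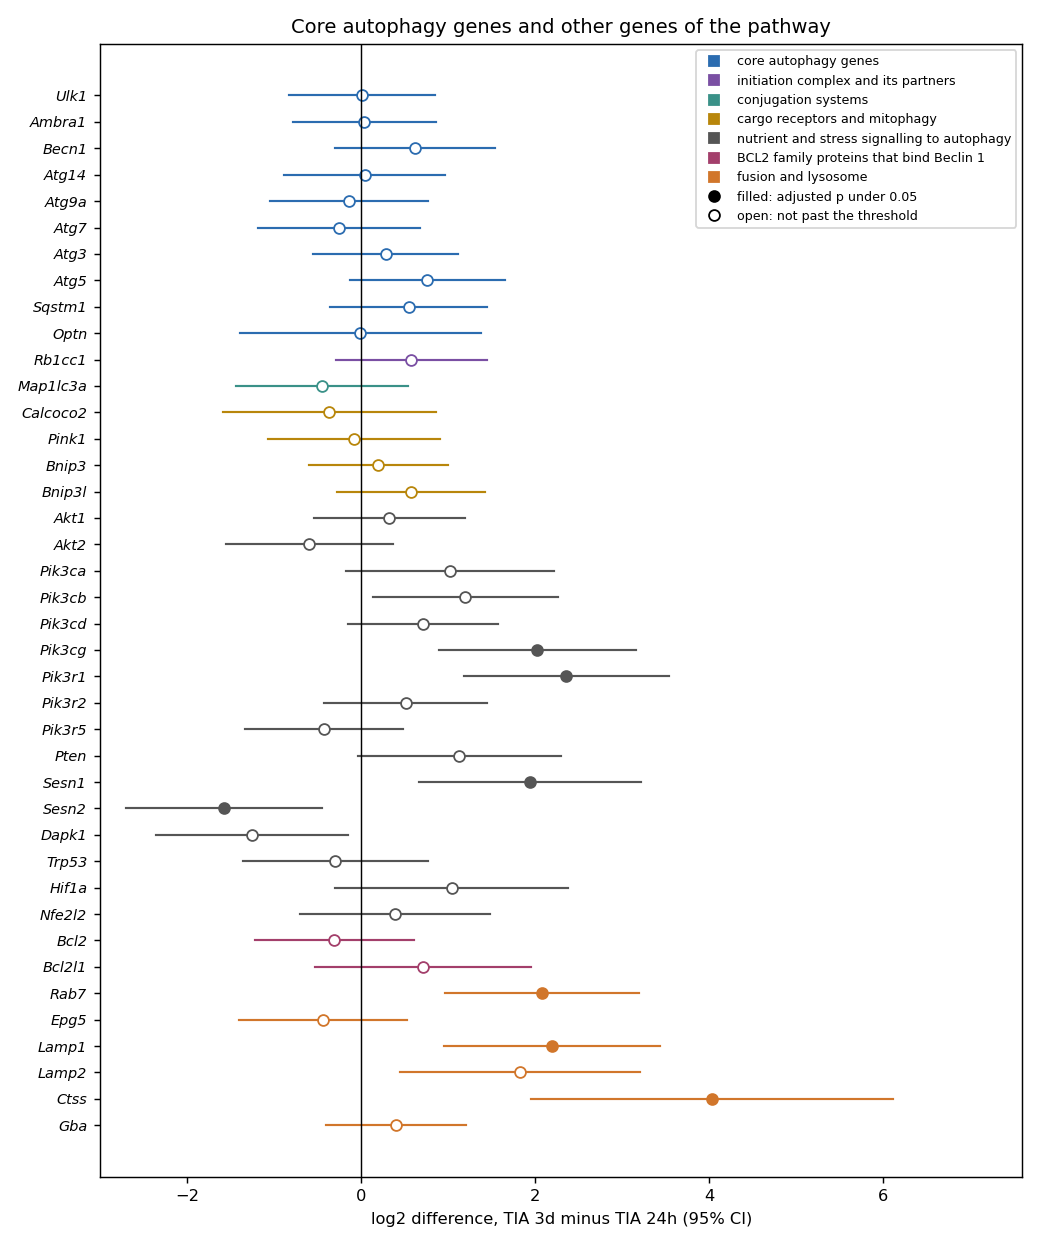
Log2 difference of TIA 3d from TIA 24h (x axis) with 95% confidence intervals for the 10 core autophagy genes and 30 other genes of the pathway, coloured by list. Filled points passed an adjusted p of 0.05 in limma: 7 of the 30 other genes, led by Ctss (4.04), and none of the core genes.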

How the data were processed

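RNA of sorted CD45+ CD11b+ cells from 9 mice was counted on the nCounter mouse neuroinflammation panel. The authors scaled the counts of each lane to housekeeping probes chosen by geNorm in ROSALIND and deposited log2 values. Whether their exclusion of genes under the highest negative control touched the table is not given in the sources used here. In each lane the values were log2 of whole multiples of 1 step, within 0.01 counts for 100% of values, which returned the counts. Whether counts of 0 were raised to 1 is unknown. No count model was used as the main test.

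Groups were read from the sample titles. Deposited values of all 757 genes and 9 samples were fitted with limma 3.58.1 in R 4.3.3 (lmFit and eBayes, group means, no covariate), with a moderated F test, 3 contrasts and Benjamini-Hochberg adjustment over all genes at 0.05. The code was tested on simulated data. Poisson intervals are exact (95%). Alternatives were median centring, quantile normalization, lane-total scaling, a filter at the 0.25 quantile of mean level, a replicate block, each sample left out, an ordinary linear model, an intensity trend with robust prior, array weights, the log2 total as a covariate and voom. Figures were drawn with matplotlib 3.10.9.

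The text names all 10 members, every gene of the wider lists past the threshold in a comparison or otherwise the 3 with the smallest p, and for each member the gene with the highest Pearson r. Members and lists were chosen with earlier results of these data known. All 10 symbols were current in the RefSeq gene table, which was used for names. Each gene has 1 probe, so levels are not compared between genes. The later time point of the study was not analysed here.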

Additional observations from a re-analysis of the deposited data

Results flagged for a closer look

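Between the 2 time points after TIA, 7 genes of the wider autophagy and lysosome lists differed by the test of that difference itself (limma, TIA 3d minus TIA 24h), 7 of 30 measured, against 19.2% of all genes on the panel. The log2 differences were 4.04 for Ctss, 2.20 for Lamp1, 2.08 for Rab7, 2.36 for Pik3r1, 2.03 for Pik3cg, 1.95 for Sesn1 and -1.58 for Sesn2. All 7 missed the threshold under quantile normalization (Ctss 1.33, Lamp1 0.39), with the log2 total count as a covariate and in an unmoderated linear model. By lane total Lamp1 (1.25), Rab7 (1.13), Pik3cg (1.08) and Sesn1 (1.00) missed it. None of the 10 core autophagy genes passed this test. With 3 animals a group, single samples were not tested as outliers.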

How the results depend on the processing

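The count of core autophagy genes past the threshold was 0 in each of the 4 tests under every alternative run, the fit with a replicate block included (0 of 10 in each), while the number of all genes past it in TIA 3d against TIA 24h ran from 0 (ordinary linear model, total count as a covariate) over 7 (quantile), 97 (voom), 140 (replicate block), 144 (median-centred) and 177 (intensity trend) to 314 (array weights) and 344 (lane total), against 145. In the F test it was 0 as deposited, with voom, with the ordinary model and with the covariate, 1 with quantile normalization, 40 with the filter on low values, 50 with the trend, 52 median-centred, 54 with the replicate block, 181 by lane total and 295 with array weights. In TIA 3d against Sham it was 174 with array weights and 8 with the trend, against 0. Leaving out a sample gave 0 to 226 genes for TIA 3d against TIA 24h, 0 to 136 for the F test and 0 to 84 for TIA 3d against Sham. Same-numbered samples deviated with correlations of -0.24 to 0.27, over 0.1 in 5 of 9 pairs, so the numbers were not taken to pair the animals. Atg9a and Optn lay under the filter on low values and have no value there (8 of 10 members were left), as has Sesn2.

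The median difference of the members in TIA 3d against TIA 24h was 0.04 as deposited, 0.38 median-centred, -0.91 by lane total, -0.25 with the covariate and -0.0295 to 0.31 with a sample left out. The highest of these was without TIA 3d replicate 2 and the lowest without TIA 3d replicate 3. In TIA 3d against Sham it was 0.49, and 0.14 by quantile, -0.27 by lane total and -0.076 with the covariate.

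The following members, none past the threshold, changed sign, and the cause was not tested. Median-centred, Sqstm1 was -0.075 at 24h against Sham, and at 3d against 24h Atg9a was 0.20, Atg7 0.085 and Optn 0.33. By quantile, Atg7 was -0.064 and Sqstm1 -0.24 at 3d against Sham, and at 3d against 24h Ulk1 was -0.18, Ambra1 -0.14, Atg9a 0.26, Atg3 -0.21, Sqstm1 -0.60 and Optn 0.36. By lane total, at 3d against Sham Ambra1 was -0.30, Becn1 -0.42, Atg14 -0.13, Atg7 -0.69, Atg3 -0.24, Atg5 -0.48 and Sqstm1 -0.10, and at 3d against 24h Ulk1 was -0.94, Ambra1 -0.91, Becn1 -0.33, Atg14 -0.91, Atg3 -0.66, Atg5 -0.19 and Sqstm1 -0.40. With array weights Sqstm1 was -0.069 at 24h against Sham, Becn1 -0.11 at 3d against Sham, and Ulk1 -0.0195 and Ambra1 -0.0675 at 3d against 24h. With the covariate, at 3d against Sham Becn1 was -0.27, Atg14 -0.30, Atg5 -0.55 and Optn -0.49, and at 3d against 24h Ulk1 was -0.29, Becn1 -0.23, Atg14 -1.23, Atg7 0.87, Atg3 -0.27, and Atg5 -0.39. With voom Ulk1 was -0.0745 and Atg14 -0.0265 at 3d against 24h. With a sample left out, Becn1 ran from -0.51 to 0.0029 at 24h against Sham and Atg7 from -0.21 to 0.48 at 3d against Sham, and at 3d against 24h Ulk1 ran from -0.20 to 0.17, Ambra1 from -0.14 to 0.23, Atg14 from -0.13 to 0.29, Atg9a from -0.48 to 0.17 and Optn from -0.62 to 0.54.

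Of the 7 wider genes, which passed as deposited, 3 changed sign with the covariate at 3d against 24h (Rab7 -0.19, Lamp1 -0.22 and Ctss -1.31). All 7 missed the threshold with the ordinary linear model, which leaves the differences as they are, with the covariate, and with quantile normalization, where Ctss was 1.33 and Lamp1 0.39 but Pik3r1 2.18 and Sesn1 1.93. By lane total Ctss, Pik3r1 and Sesn2 passed (adjusted p of 0.0143, 0.0493 and 0.0114), with voom Pik3cg, Sesn1, Rab7 and Lamp1 did not (0.065, 0.071, 0.071 and 0.103), and Sesn2 did not with the replicate block (0.0583) or median-centred (0.0913).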
